A study of Homo sapiens with 24 samples.

Results

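The genes described here encode dual-specificity phosphatases (DUSP) and Sprouty proteins that restrain MAP kinase signalling. They were chosen by name: DUSP1, DUSP2, DUSP4, DUSP5, DUSP6, DUSP8, DUSP10, SPRY1, SPRY2 and SPRY4, where a gene is listed. Of these 10, the 6 phosphatase genes DUSP1, DUSP2, DUSP4, DUSP5, DUSP6 and DUSP10 and the 2 Sprouty genes SPRY1 and SPRY2 were listed in all 24 libraries, 8 of 7223 genes listed in any library. All 8 passed the filter on low values in both batches. DUSP8 and SPRY4 were not analysed here.

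MAP kinases are switched on by phosphorylation, and the dual-specificity phosphatases switch them off by removing phosphate from the threonine and tyrosine of the activation loop. Sprouty proteins act higher up, between growth factor receptors and RAS. Many of these genes are themselves transcribed when ERK is active, so that the pathway makes its own brake, and several belong to the fast-responding genes whose polymerases pause near the promoter. Integrator acts on such paused RNA polymerase II, and it joins an RNA endonuclease to the phosphatase PP2A.

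The assay was TT-seq, which isolates and sequences RNA labelled during a short pulse and so reads ongoing transcription, and the cells were DLD1, an established human colorectal adenocarcinoma line. The study asked how the endonuclease and the phosphatase of Integrator each bear on transcription. In the INTS11 line the gene for the catalytic subunit of the endonuclease carried a knocked-in dTAG, and in the INTS8 line the gene for the subunit that helps to hold PP2A carried it, so that the small molecule dTAG13 directs the tagged protein to degradation. The N211del line was the INTS8-dTAG line with INTS8-N211del expressed in addition, so its control cells also carry the tag and the variant. In batch 1 all 3 lines were exposed for 3 h to dTAG13 or to DMSO, its vehicle. In batch 2 dTAG13 was given for 0, 1 or 3 h to the INTS11 line and to the N211del line. The 12 groups had 2 libraries apiece, called biological duplicates, and p-values measure only the spread between them, which may be technical. Batch 2 had no vehicle group of its own, and no cells without the tag received dTAG13, so effects of dTAG13 itself, and in batch 2 of handling, cannot be told apart from those of degradation. The tag acts on protein, so its loss cannot be read from RNA, and INTS11 and INTS8 were not analysed here. In bulk samples fewer cells making an RNA and less of it per cell cannot be told apart.

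The deposited values, headed FPKM, were compared on a log2 scale after adding 0.1, with limma across all genes of a batch (6579 in batch 1 and 6950 in batch 2). Adjusted p-values are limma's, and a gene is said to have risen or fallen where the adjusted p was below 0.05. The whole-number units behind the values ranged in total from 5514811 to 8114955 over the libraries of batch 1 and from 8709275 to 11266619 over those of batch 2. The lowest totals of batch 1 were those of the N211del line with DMSO, 5612470 and 5514811, against 6175772 and 7015653 with dTAG13. The other DMSO libraries had 7025986 to 7416280. Values of batch 1 behave as units per kilobase without a factor per library, so these totals enter its fold changes unless libraries are centred. The epithelial markers EPCAM, CDH1, CDH17, KRT8, KRT18 and CDX2 were read in every library, while COL1A1, the one marker of other cell types listed, reached at most 0.318 and was listed in batch 2 alone. Of the 12 epithelial markers searched, KRT20, CEACAM5 and CLDN4 stood at or near 0 and LGALS4 below 1 in batch 2. The median gene moved by over 0.1 in the log2 value in several comparisons (0.21 in the N211del line at 3 h in batch 1, and 0.31 at 1 h and 0.18 at 3 h in batch 2). Medians of all genes are therefore given beside the members, and calls lost on centring the libraries on their medians are named.

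Loss of INTS8, with or without the variant, was followed by higher transcription of most of these genes, and loss of INTS11 by smaller and mixed changes. In the INTS8 line all 8 genes rose after 3 h, where 55.6% of all genes tested were called (34.6% higher, 21% lower). Their median log2 fold change was 0.93, against 0.06 for all genes. In the N211del line of batch 1, 7 rose and none fell, where again 55.6% of genes were called (48.5% higher, 7.1% lower), with a median of 0.78 against 0.21. In batch 2 all 8 genes of the N211del line rose at 3 h, where 63.5% of genes were called (49.7% higher, 13.8% lower), with a median of 0.94 against 0.18. In the INTS11 line 3 of the 8 rose in batch 1, with 39.1% of genes called (19.4% higher, 19.8% lower) and a median of 0.24 against −0.03. In batch 2, 6 rose and 1 fell in the INTS11 line at 3 h, with 55.4% called (36.0% higher, 19.3% lower) and a median of 0.27 against 0.08. After centring, the N211del line of batch 1 had 6 of the 8 higher and 1 lower, and 1771 genes higher and 2316 lower in place of 3191 and 467. In the other comparisons at 3 h centring left 7 higher in the INTS8 line (2017 genes higher and 2398 lower in place of 2277 and 1379), 7 higher in the N211del line of batch 2 (2148 and 2436 in place of 3454 and 956) and, in batch 2, 6 higher with 1 lower for the INTS11 line (2207 and 2009 in place of 2503 and 1344). In the INTS11 line of batch 1 centring gave 4 higher in place of 3 (1720 genes higher and 1610 lower in place of 1275 and 1300). The INTS11 count of batch 2 came to 2 higher and 1 lower with the correction for gene length. With averaged pairs it came to 4 higher, where 1613 of all genes were higher and 650 lower. It fell too when 3 h replicate 1 was left out.

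**Figure D1:**
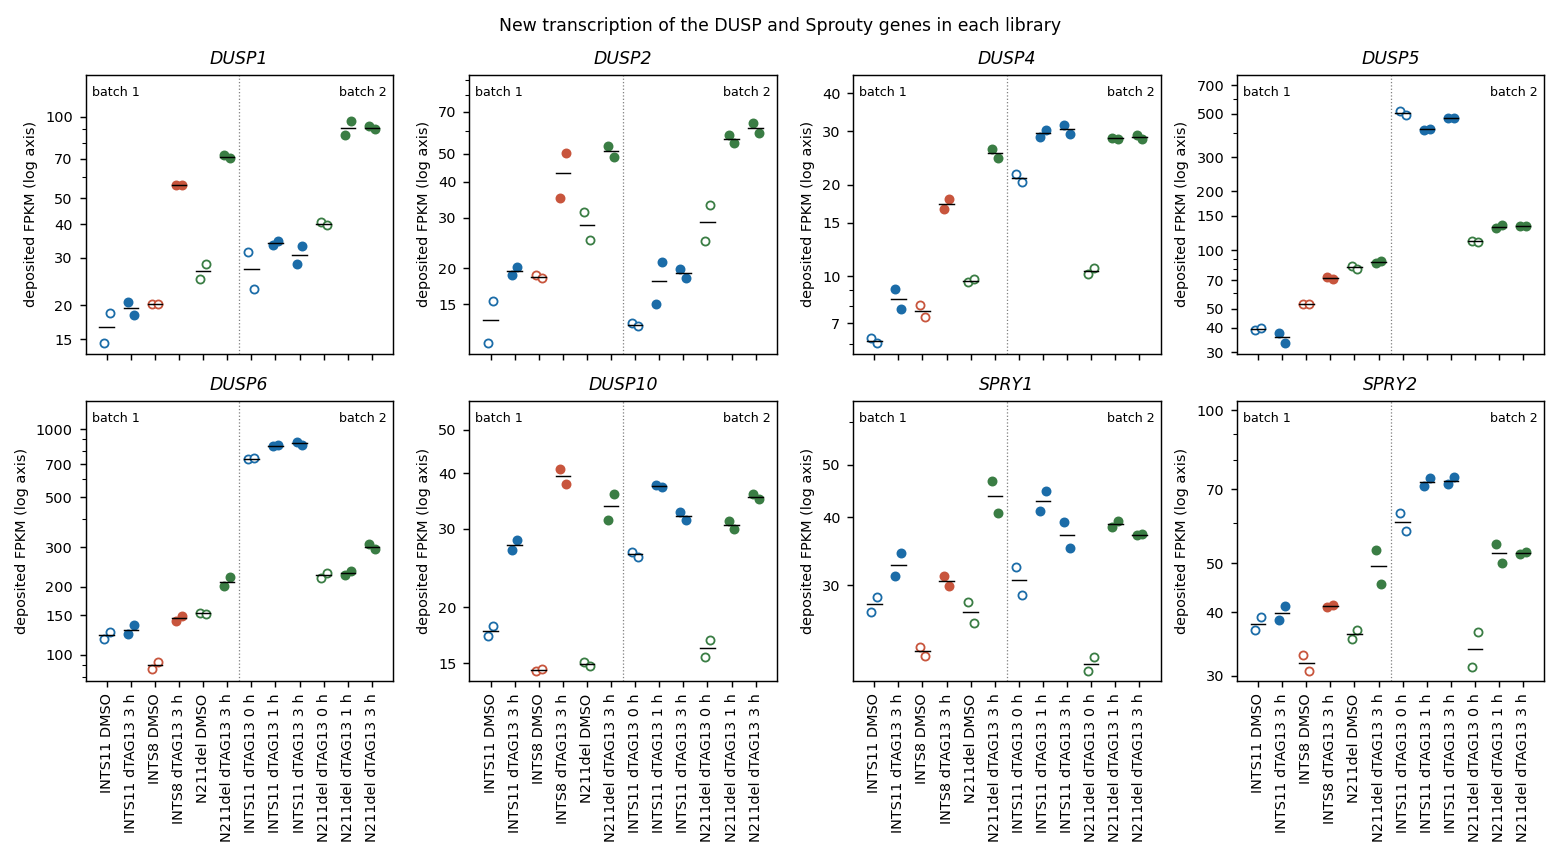
Deposited FPKM of each gene in every library on log axes that differ between panels, with batch 1 left and batch 2 right of the dotted line; open points are DMSO or 0 h libraries, filled points dTAG13 libraries, and bars the means of the 2 libraries. DUSP1 stood at 55.8 in both treated libraries of the INTS8 line and at 20.3 in both of its controls, and DUSP5 and DUSP6 were highest in the INTS11 line of batch 2.

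DUSP1, DUSP2 and DUSP4, inducible phosphatases found in the nucleus, rose in each comparison at 3 h in which INTS8 was degraded. DUSP1, which acts on p38, JNK and ERK, stood at 20.3 in both DMSO libraries of the INTS8 line and at 55.8 in both dTAG13 libraries. The DMSO libraries of the N211del line read 25.2 and 28.4 and its dTAG13 libraries 72.0 and 70.3. In batch 2 the N211del line went from 40.7 and 39.6 at 0 h to 92.2 and 89.9 at 3 h. Treated and control libraries did not overlap in any of these. The log2 fold changes were 1.45 ± 0.10 (SE; adjusted p = 1.25e-09) in the INTS8 line, 1.41 ± 0.10 (adjusted p = 2.00e-09) in the N211del line of batch 1 and 1.18 ± 0.13 (adjusted p = 3.60e-05) in batch 2. Each was called under all 13 alternatives. DUSP1 in the INTS11 line read 14.5 and 18.7 with DMSO and 20.7 and 18.4 with dTAG13 in batch 1, and 31.6 and 23.1 at 0 h and 28.4 and 33.1 at 3 h in batch 2. The groups overlapped in both batches, and neither difference passed the test (0.24 ± 0.10, adjusted p = 0.0628, and 0.18 ± 0.13, adjusted p = 0.248, the second turning to −0.11 with correction for gene length and −0.04 without 0 h replicate 2). It passed in batch 1 without DMSO replicate 2 (adjusted p = 0.0009) or dTAG13 replicate 2 (adjusted p = 0.0325), and in batch 2 without 0 h replicate 1 (adjusted p = 0.0077).

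DUSP2, a nuclear phosphatase that acts on ERK, read 18.9 and 18.5 with DMSO and 35.2 and 50.2 with dTAG13 in the INTS8 line. The N211del line read 31.2 and 25.1 with DMSO and 53.3 and 48.9 with dTAG13 in batch 1, and 24.8 and 33.3 at 0 h and 63.8 and 58.9 at 3 h in batch 2. The groups did not overlap, although the 2 dTAG13 libraries of the INTS8 line lay further apart than those of any other group of batch 1. The log2 fold changes were 1.16 ± 0.21 (adjusted p = 0.00288), 0.86 ± 0.21 (adjusted p = 0.0118) and 1.09 ± 0.16 (adjusted p = 0.000237). DUSP2 is the shortest of the 8 at 2273 bp and rested on 25 to 121 units per library in batch 1, the fewest of them, and the N211del call of batch 1 was lost without DMSO replicate 2 (adjusted p = 0.0798). DUSP2 in the INTS11 line read 11.0 and 15.4 with DMSO and 18.9 and 20.2 with dTAG13, a log2 fold change of 0.58 ± 0.21 (adjusted p = 0.0705). In batch 2 it rose from 12.9 and 12.6 at 0 h to 19.9 and 18.5 at 3 h (0.59 ± 0.16, adjusted p = 0.0113). The batch 1 difference passed under 5 of 13 alternatives and the batch 2 call was lost under 3 of 13.

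DUSP4, a nuclear phosphatase of ERK and JNK, was higher after dTAG13 in every line and batch. It read 8.06 and 7.33 with DMSO and 16.6 and 17.9 with dTAG13 in the INTS8 line, and 9.54 and 9.77 against 26.2 and 24.5 in the N211del line of batch 1. In batch 2 the N211del line went from 10.2 and 10.6 at 0 h to 29.2 and 28.2 at 3 h. The log2 fold changes were 1.16 ± 0.09 (adjusted p = 3.77e-10), 1.38 ± 0.09 (adjusted p = 2.33e-11) and 1.45 ± 0.05 (adjusted p = 1.52e-08). The INTS11 line went from 6.25 and 6.02 to 9.09 and 7.78 in batch 1 (0.45 ± 0.09, adjusted p = 0.000579) and from 21.8 and 20.4 to 31.4 and 29.5 in batch 2 (0.53 ± 0.05, adjusted p = 2.98e-05). No treated library of DUSP4 fell within its control range. All of these calls held under each of the 13 alternatives.

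**Figure D2:**
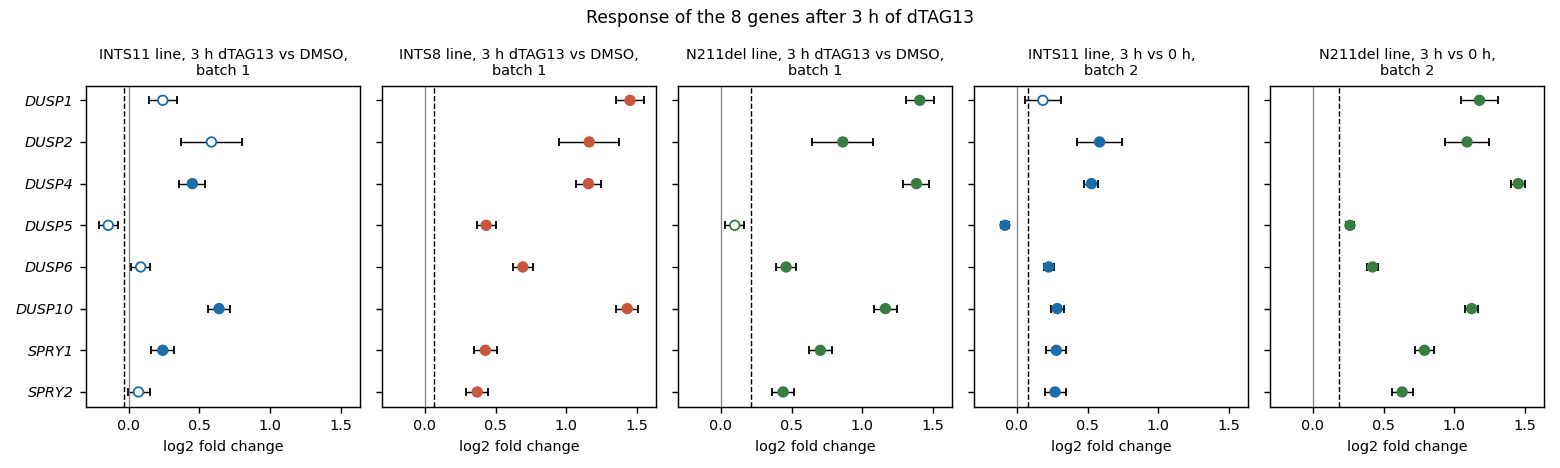
Log2 fold change of each gene after 3 h of dTAG13 against DMSO (batch 1) or 0 h (batch 2), one panel per comparison on a shared axis; bars are standard errors from limma, filled points passed the test, and the dashed line is the median of all genes tested. DUSP1, DUSP4 and DUSP10 lay above 1 in the INTS8 and N211del panels, DUSP5 at 0.43, 0.10 and 0.26, the second of which turned to −0.16 with centring.

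DUSP1 and DUSP2 also shared their pattern over the 12 group means (Pearson r = 0.963, each batch centred on its own mean), and their promoters are shown for that reason beside the promoter of DUSP6, whose pattern differed from theirs (r = −0.241 and −0.393). These are descriptions over means that share libraries and include the differences between lines before degradation. After 3 h DUSP6 rose, as DUSP1 and DUSP2 did, in the INTS8 line and in the N211del line of both batches. The 250 bases before the start of each gene, from RefSeq on GRCh38.p14, lie at chr5:172771196-172771445 (minus strand) for DUSP1, chr2:96145441-96145690 (minus strand) for DUSP2 and chr12:89352502-89352751 (minus strand) for DUSP6. Capitals mark a cAMP response element (TGACGTCA) and a TATA box (TATAAA); the other motifs that would have been set in capitals were an AP-1 site (TGANTCA), an ETS core (CCGGAA) and a CArG box, all read on both strands. No match overlapped another.
DUSP1: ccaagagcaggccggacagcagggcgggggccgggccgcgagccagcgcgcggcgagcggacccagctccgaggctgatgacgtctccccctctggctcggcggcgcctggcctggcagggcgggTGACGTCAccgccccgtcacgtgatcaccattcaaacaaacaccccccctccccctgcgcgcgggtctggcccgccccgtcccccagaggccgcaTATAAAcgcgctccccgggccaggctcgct
DUSP2: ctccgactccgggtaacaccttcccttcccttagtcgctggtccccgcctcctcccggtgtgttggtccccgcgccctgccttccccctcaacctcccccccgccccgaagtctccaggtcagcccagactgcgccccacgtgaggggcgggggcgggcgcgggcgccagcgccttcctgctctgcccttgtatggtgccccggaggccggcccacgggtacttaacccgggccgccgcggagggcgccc
DUSP6: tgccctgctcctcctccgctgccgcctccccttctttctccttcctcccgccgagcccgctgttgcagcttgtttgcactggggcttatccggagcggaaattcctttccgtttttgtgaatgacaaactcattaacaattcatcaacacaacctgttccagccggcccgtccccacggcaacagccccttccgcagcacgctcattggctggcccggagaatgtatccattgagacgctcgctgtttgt
DUSP1 held the cAMP response element at 125 to 118 bases and the TATA box at 30 to 25 bases before its start. Over 35114 such regions of the RefSeq table, 1.65% held the cAMP response element, 10.7% the TATA box, 6.57% the AP-1 site, 14.5% the ETS core and 1.16% the CArG box. None of these 5 motifs was found in this window of DUSP2 or DUSP6. The window of DUSP1 also held 4 GC boxes (GGGCGG) and that of DUSP2 held 3, against 0 in DUSP6, and 42.6% of all regions hold at least 1. Windows of 6 of the 8 genes were searched, each before the most upstream start listed for the gene. DUSP10 and SPRY1 have 2 listed starts and SPRY2 has 3, and their other starts were not searched. In these windows DUSP10 held 3 GC boxes, SPRY2 held 2 and an ETS core, and SPRY1 held none of the motifs. GC content was 74.4% in DUSP1, 74.0% in DUSP2 and 57.2% in DUSP6.

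DUSP5 and DUSP6 are specific for ERK, DUSP5 in the nucleus and DUSP6 in the cytoplasm, and their responses were smaller. DUSP5 rose in the INTS8 line, from 53.2 and 53.0 with DMSO to 72.9 and 70.7 with dTAG13 (log2 fold change 0.43 ± 0.07, adjusted p = 1.15e-05). The N211del line of batch 1 read 83.4 and 79.6 with DMSO and 86.2 and 88.1 with dTAG13, a difference that did not pass (0.10 ± 0.07, adjusted p = 0.23) and turned to −0.16 with centring. In batch 2 the N211del line went from 112 and 110.1 at 0 h to 133 in both libraries at 3 h (0.26 ± 0.03, adjusted p = 4.22e-05), a call lost with centring (0.07) and with the correction for gene length (0.05).

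DUSP5 was the member that went down in the INTS11 line. It read 39.0 and 39.7 with DMSO and 37.7 and 33.5 with dTAG13 in batch 1 (−0.15 ± 0.07, adjusted p = 0.0919). In batch 2 it read 515 and 493 at 0 h, 416 and 419 at 1 h and 474 and 475 at 3 h. All treated libraries of both batches lay below their controls. At 1 h it had fallen by 0.27 ± 0.03 on the log2 scale (adjusted p = 6.03e-05), under each of the 13 alternatives. At 3 h it had fallen by 0.09 ± 0.03 (adjusted p = 0.0345), and 5 of 13 alternatives lost that call, with adjusted p up to 0.196.

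DUSP6, the member with the highest level per length in every group, read 86.3 and 93.3 with DMSO and 142 and 148 with dTAG13 in the INTS8 line. In the N211del line of batch 1 it read 153 and 152 with DMSO and 201 and 220.3 with dTAG13, and in batch 2 219 and 231 at 0 h and 309 and 294 at 3 h. Treated libraries lay above controls in each case. The log2 fold changes were 0.69 ± 0.07 (adjusted p = 1.63e-08), 0.46 ± 0.07 (adjusted p = 6.25e-06) and 0.42 ± 0.04 (adjusted p = 6.11e-06). The groups overlapped in the INTS11 line of batch 1, at 117 and 127 with DMSO and 123 and 136 with dTAG13 (0.08 ± 0.07, adjusted p = 0.35). In batch 2 DUSP6 rose from 739.8 and 742 to 877 and 854 (0.22 ± 0.04, adjusted p = 0.000684), and correction for gene length turned this to −0.024.

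DUSP10, a phosphatase of p38 and JNK rather than ERK, was higher after dTAG13 in every line, and it was the member that rose most in the INTS11 line of batch 1. There it read 17.3 and 18.1 with DMSO and 26.9 and 28.3 with dTAG13 (0.64 ± 0.08, adjusted p = 1.66e-06). In the INTS8 line it read 14.4 and 14.5 with DMSO and 40.7 and 37.9 with dTAG13, and in the N211del line 15.1 and 14.8 against 31.5 and 36.0. No libraries overlapped, and the log2 fold changes were 1.43 ± 0.08 (adjusted p = 7.08e-13) and 1.17 ± 0.08 (adjusted p = 3.33e-11). In batch 2 the INTS11 line went from 26.7 and 26.0 at 0 h to 32.8 and 31.4 at 3 h (0.29 ± 0.05, adjusted p = 0.000753). The N211del line of batch 2 went from 15.5 and 16.9 to 35.9 and 34.9 (1.12 ± 0.05, adjusted p = 5.23e-08). These calls held under each of the 13 alternatives. At 40667 bp DUSP10 is the longest of the 8, and all but DUSP4 and DUSP10 are shorter than 14943 bp.

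The Sprouty genes moved less than DUSP1, DUSP4 and DUSP10 in the fitted values of the INTS8 line. SPRY1 read 23.1 and 22.2 with DMSO and 31.2 and 29.9 with dTAG13 in the INTS8 line (0.43 ± 0.08, adjusted p = 0.000103). In the N211del line it rose from 28 and 25.5 to 46.6 and 40.8 in batch 1 (0.70 ± 0.08, adjusted p = 1.34e-07), and from 20.8 and 22.1 to 37.1 and 37.3 in batch 2 (0.79 ± 0.07, adjusted p = 7.44e-06). The treated libraries lay above the controls in all of these. In the INTS11 line it rose from 26.8 and 28.6 to 31.2 and 34.3 in batch 1 (0.24 ± 0.08, adjusted p = 0.0219) and from 32.5 and 28.8 to 39.2 and 35.2 in batch 2 (0.28 ± 0.07, adjusted p = 0.00769). The INTS11 calls were lost under 4 of 13 alternatives in batch 1 and 3 of 13 in batch 2, while the INTS8 and N211del calls held under all 13.

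SPRY2 read 33.0 and 30.7 with DMSO and 41.0 and 41.4 with dTAG13 in the INTS8 line (0.37 ± 0.08, adjusted p = 0.000344). It rose in the N211del line from 35.5 and 36.9 to 53.2 and 45.4 in batch 1 (0.44 ± 0.08, adjusted p = 5.06e-05) and from 31.2 and 36.6 to 52.1 and 52.7 in batch 2 (0.63 ± 0.07, adjusted p = 5.48e-05). Centring ended the calls of batch 1 in both lines (adjusted p = 0.0519 and 0.174) and left that of batch 2. The libraries of the INTS11 line overlapped in batch 1, at 36.9 and 39.2 with DMSO and 38.6 and 41.2 with dTAG13 (0.07 ± 0.08, adjusted p = 0.507). In batch 2 SPRY2 rose from 62.8 and 57.9 to 71.6 and 73.9 (0.27 ± 0.07, adjusted p = 0.0119), a call lost under 4 of 13 alternatives: correction for gene length (0.02, adjusted p = 0.795), averaged pairs (adjusted p = 0.114), and leaving out 0 h replicate 2 (adjusted p = 0.0837) or 3 h replicate 2 (adjusted p = 0.0648).

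The difference between lines was tested as a difference of responses within a batch. In batch 1 the response of the INTS8 line exceeded that of the INTS11 line for 6 of the 8 genes, where 25.4% of genes differed (19.4% higher). The median difference of the 8 was 0.60, against 0.09 for all genes. DUSP1 differed most, by 1.21 ± 0.14 on the log2 scale (adjusted p = 5.18e-06), followed by DUSP10 (0.79 ± 0.11, adjusted p = 1.17e-05) and DUSP4 (0.71 ± 0.13, adjusted p = 0.000247). DUSP2 (0.58 ± 0.30, adjusted p = 0.223) and SPRY1 (0.19 ± 0.11, adjusted p = 0.244) did not pass. DUSP6 and DUSP5 differed by 0.61 ± 0.10 and 0.58 ± 0.10, and SPRY2 by 0.30 ± 0.11 (adjusted p = 0.0469), a call that 8 of 17 alternatives lost. Centring left 5 of the 8 higher, without SPRY2 (1125 genes higher and 1373 lower in place of 1278 and 395).

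The N211del response exceeded that of the INTS11 line for 7 of the 8 in batch 1, where 48.5% of genes differed (43.7% higher, 4.8% lower). The median difference of the 8 was 0.42, against 0.26 for all genes, and DUSP5 lay below the latter at 0.24. With centring 3 of the 8 passed, DUSP1, DUSP4 and DUSP10, and 992 genes were higher and 1237 lower in place of 2874 and 316. In batch 2 the N211del response exceeded that of the INTS11 line for 7 of the 8 at 3 h, where 50.9% differed (35.8% higher). At 1 h it did so for 6 with 1 lower, where 48.6% differed (39.3% higher, 9.24% lower). The lower one was DUSP6 at −0.16, a call lost under 6 of 17 alternatives. Medians of the 8 were 0.51 at 3 h and 0.45 at 1 h, against 0.11 and 0.16 for all genes. Centring left 5 of the 8 higher at 3 h (1752 genes higher and 1993 lower in place of 2487 and 1053), and 4 higher with 1 lower at 1 h (1553 and 1792 in place of 2733 and 642). The calls lost were those of DUSP6 and SPRY2 at 3 h and of SPRY1 and SPRY2 at 1 h. DUSP1 differed by 1.17 ± 0.14 in batch 1 and 1.00 ± 0.18 at 3 h in batch 2 (adjusted p = 8.00e-06 and 0.00164), and DUSP4 by 0.94 ± 0.13 and 0.93 ± 0.07 (adjusted p = 1.01e-05 and 9.25e-06). Both passed under all 17 alternatives in each batch. The INTS8 and N211del lines share the tag and differ by the added variant, and there 1 of the 8 differed in response, where 11.1% of all genes did (9.04% higher, 2.01% lower). Medians of the N211del minus INTS8 difference were −0.14 for the 8 and 0.16 for all genes. DUSP5 rose less in the N211del line (−0.34 ± 0.10, adjusted p = 0.0319), a call lost under 8 of 17 alternatives. DUSP6 (−0.23 ± 0.10, adjusted p = 0.108) and DUSP10 (−0.27 ± 0.11, adjusted p = 0.106) passed with centring (−0.39 and −0.42), in the same direction (287 genes higher and 469 lower in place of 595 and 132).

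Most of the 8 genes had already moved at 1 h in batch 2. At 1 h in the N211del line 7 of the 8 had risen, where 71.0% of genes were called (66.0% higher, 4.92% lower), with a median of 0.88 against 0.31. In the INTS11 line 6 had risen and DUSP5 had fallen, where 55.9% were called (46.0% higher, 9.86% lower), with a median of 0.40 against 0.16. These share their 0 h libraries with the comparisons at 3 h, so the same high or low control enters both. Centring left 6 higher and 2 lower in the N211del line (2049 genes higher and 2509 lower in place of 4590 and 342) and, in the INTS11 line, 3 higher with 1 lower (2016 and 2108 in place of 3197 and 685). The INTS11 calls lost were those of DUSP2, DUSP6 and SPRY2.

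DUSP1 in the N211del line stood at 40.7 and 39.6 at 0 h, 85.7 and 96.7 at 1 h and 92.2 and 89.9 at 3 h. DUSP4 stood at 28.6 and 28.3 at 1 h and 29.2 and 28.2 at 3 h. For both, the libraries of 1 h and 3 h overlapped, and the difference between these times was −0.00 ± 0.13 for DUSP1 and 0.01 ± 0.05 for DUSP4. DUSP2, DUSP5, SPRY1 and SPRY2 also differed little between 1 and 3 h, by −0.06 to 0.13. The median of all genes in this line was −0.13 between these times.

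DUSP6 kept another course in the N211del line, at 219 and 231 at 0 h, 225 and 235 at 1 h and 309 and 294 at 3 h. At 1 h its libraries overlapped those of 0 h (0.03 ± 0.04, adjusted p = 0.496), and with centring it was lower (−0.32). Between 1 and 3 h it rose by 0.39 ± 0.04 (adjusted p = 0.000206). DUSP10 rose there too, from 31.2 and 29.9 to 35.9 and 34.9 (0.21 ± 0.05, adjusted p = 0.00784), which ended without 1 h replicate 2 (adjusted p = 0.0585). These were the 2 of the 8 called between 1 and 3 h, where 37.2% of genes were called (2.2% higher, 35% lower), and centring made it 4, with DUSP4 and DUSP5 (803 genes higher and 530 lower in place of 153 and 2430).

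DUSP10 in the INTS11 line took the opposite course, at 26.7 and 26.0 at 0 h, 37.6 and 37.2 at 1 h and 32.8 and 31.4 at 3 h. It fell by 0.22 ± 0.05 between 1 and 3 h (adjusted p = 0.0222), a call that ended with centring (adjusted p = 0.0858) and when any of 3 of the 4 libraries was left out (all but 1 h replicate 2). DUSP5 rose by 0.19 ± 0.03 over the same time (adjusted p = 0.0149), which ended when 1 h replicate 1 or either 3 h replicate was left out. Of all genes 15.6% were called between these times (0.475% higher, 15.1% lower), with 33 higher and 1050 lower, and 108 and 84 after centring.

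**Figure D3:**
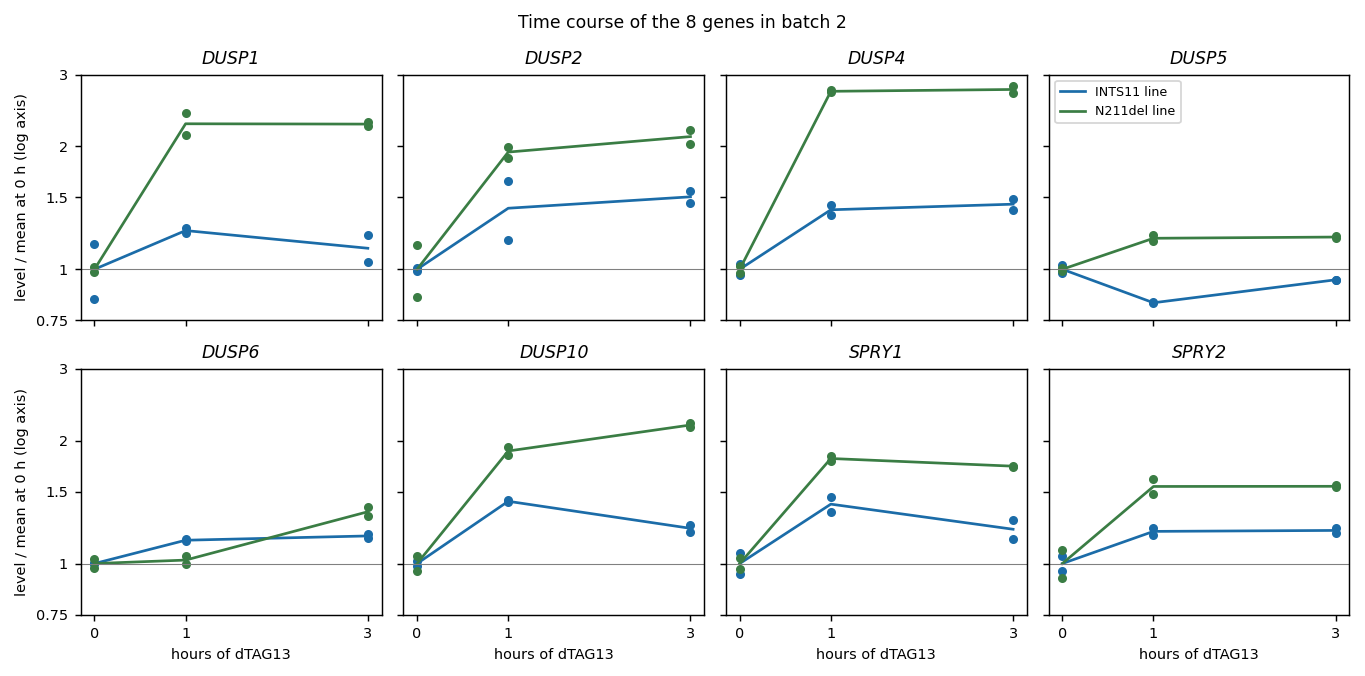
Level of each gene in batch 2 divided by the mean of its line at 0 h, on a shared log axis, against hours of dTAG13; points are libraries and lines join the means of 2. Relative to 0 h, DUSP1, DUSP2, DUSP4, DUSP5, DUSP10, SPRY1 and SPRY2 stood higher in the N211del line than in the INTS11 line at 1 and 3 h. DUSP6 in the N211del line was near its 0 h level at 1 h and above it at 3 h. Undivided 3 h means in the N211del and INTS11 lines were 91.0 and 30.8 (DUSP1), 61.4 and 19.2 (DUSP2) and 28.7 and 30.5 (DUSP4). For DUSP5 they were 133 and 475, for DUSP10 35.4 and 32.1, for SPRY1 37.2 in both, and for SPRY2 52.4 and 72.8.

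Before any degradation the lines already differed in these genes. With DMSO in batch 1, DUSP5 was 2.07-fold as high in the N211del line as in the INTS11 line (1.05 ± 0.07 on the log2 scale, adjusted p = 3.24e-11), DUSP2 2.14-fold (1.10 ± 0.21, adjusted p = 0.00309), DUSP1 1.62-fold (0.69 ± 0.10, adjusted p = 1.06e-05) and DUSP4 1.57-fold (0.65 ± 0.09, adjusted p = 2.86e-06). DUSP6 was higher by 0.33 ± 0.07 and DUSP10 lower by a log2 difference of −0.24 ± 0.08, while SPRY1 and SPRY2 did not pass (−0.05 and −0.07, turning to 0.16 and 0.14 with centring, which also ended the call of DUSP10). In all 5 of the 8 were higher and 1 lower, where 65.5% of genes were called (19.7% higher, 45.9% lower) and the median of all genes was −0.17. Centring gave 2419 genes higher and 2064 lower in place of 1294 and 3018. Against the INTS8 line, with which it shares the tag, the N211del line was higher for 7 of the 8, led by DUSP6 (0.77 ± 0.07, adjusted p = 6.02e-08), where 63.7% were called (5.03% higher) and the median of all genes was −0.30 (with centring 1727 genes higher and 1732 lower in place of 331 and 3859). That count came to 4 with averaged pairs and to 3 to 6 with any of the 4 libraries left out, 3 of them without INTS8 DMSO replicate 2 and 4 without N211del DMSO replicate 1. The INTS8 line was higher than the INTS11 line for DUSP1, DUSP4 and DUSP5 and lower for DUSP6, DUSP10, SPRY1 and SPRY2, where 30.7% were called (26.8% higher, 3.91% lower). Medians were 0.02 for the 8 and 0.10 for all genes. Centring ended the calls of DUSP1 and DUSP4 (1396 genes higher and 1209 lower in place of 1762 and 257). Averaged pairs left 2 of the 8 higher and 1 lower (1112 genes higher and 116 lower). Some of the lower calls were also lost without DMSO replicate 2 of the INTS11 line or of the INTS8 line. These 3 comparisons share DMSO libraries.

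The same contrast went the other way in batch 2 for 3 of these genes. At 0 h DUSP5 stood at 112 and 110.1 in the N211del line and at 515 and 493 in the INTS11 line, a log2 difference of −2.18 ± 0.03 (adjusted p = 1.97e-10). DUSP6 stood at 219 and 231 against 739.8 and 742 (−1.72 ± 0.04, adjusted p = 1.35e-09), and DUSP4 at 10.2 and 10.6 against 21.8 and 20.4 (−1.01 ± 0.05, adjusted p = 1.50e-07). None of these libraries overlapped. DUSP10, SPRY1 and SPRY2 were lower too (−0.70, −0.51 and −0.83), and DUSP1 and DUSP2 were higher as in batch 1 (0.57 ± 0.13 and 1.16 ± 0.16). That made 6 lower and 2 higher, where 70% of genes were called (38.4% higher, 31.6% lower).

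Between the batches the larger differences were in the INTS11 line. Its DUSP5 level at 0 h in batch 2 was 12.8 times that of its DMSO libraries in batch 1, and of 6569 genes tested in both batches 1 had a larger ratio. DUSP6 was 6.07 times as high and DUSP4 3.40 times, while the median log2 difference of all genes was −0.15. In the N211del line the ratios were 1.36, 1.47 and 1.08. The values of the batches behave as scaled differently, and the batches differ in vehicle, so no test was made across them. Of the 6569 genes, 3161 were called between these lines in both batches and 1795 of them in opposite directions, 475 (7.23% of all) higher in batch 1 and lower in batch 2, as were DUSP4, DUSP5 and DUSP6. Across all 6569 genes the contrasts of batch 1 and batch 2 had a Pearson r of −0.01, a description, since genes are not independent. The labels name the same line in both batches, and what differed between them was not tested.

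**Figure D4:**
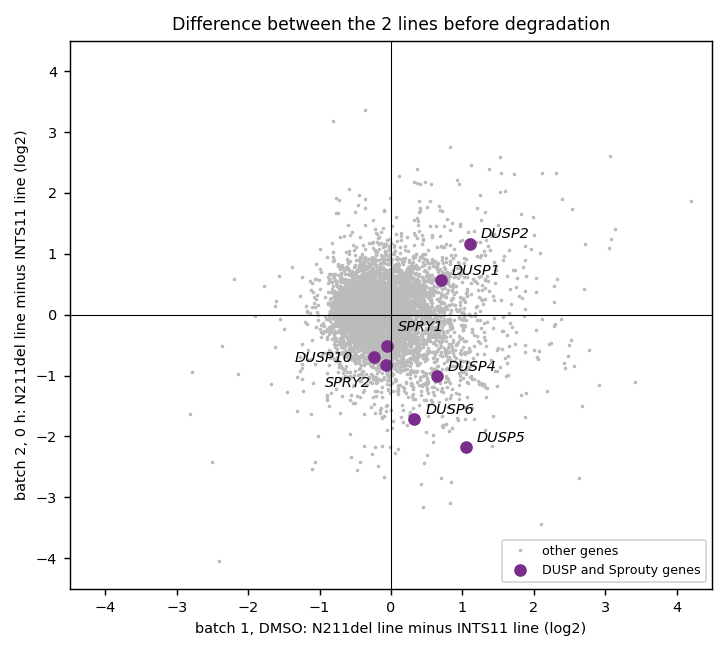
Log2 difference between the N211del and INTS11 lines before degradation, in DMSO of batch 1 on the x axis and at 0 h of batch 2 on the y axis, for 6569 genes. DUSP4, DUSP5 and DUSP6 lie right of 0 and below it, DUSP1 and DUSP2 right of 0 and above it.

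The order of the 8 genes by level per length showed the same shift. In the INTS11 line of batch 1 with DMSO it was DUSP6 (122 ± 6.72, mean ± SD, n = 2), DUSP5 (39.4 ± 0.467), SPRY2 (38.1 ± 1.65), SPRY1 (27.7 ± 1.22), DUSP10 (17.7 ± 0.626), DUSP1 (16.6 ± 2.97), DUSP2 (13.2 ± 3.11) and DUSP4 (6.13 ± 0.161). DUSP5 and SPRY2 overlapped, as did DUSP10 with DUSP1 and DUSP1 with DUSP2. In the same line at 0 h of batch 2 DUSP6 (741 ± 1.22) and DUSP5 (504 ± 15.4) stood well above the third gene, SPRY2 (60.4 ± 3.5), and DUSP2 (12.8 ± 0.160) was lowest. SPRY1 overlapped DUSP1 there, and DUSP1 overlapped DUSP10.

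Other genes of the pathway were read from lists, over the 3 h comparisons of batch 1. Of all genes tested there 34.6% rose and 21% fell in the INTS8 line (median 0.06), 48.5% rose and 7.1% fell in the N211del line (median 0.21), and 19.4% rose and 19.8% fell in the INTS11 line (median −0.03). Of 22 tested transcription targets of ERK, such as the ephrin receptor gene EPHA4, 16 rose and 2 fell in the INTS8 line (median 0.73) and in the N211del line (median 0.57). In the INTS11 line 10 of the 22 rose and 4 fell (median 0.19). EPHA4 rose by 3.18 ± 0.12, 2.39 ± 0.12 and 0.96 ± 0.12 in these lines. FOSB, an AP-1 gene, had the largest mean change of the list. Between the N211del and INTS11 lines before degradation, 18 of the 22 targets were higher and 0 lower in batch 1 (median 0.66), where 19.7% of all genes were higher and 45.9% lower. In batch 2, 3 of 23 were higher and 16 lower (median −0.60), where 38.4% of all genes were higher and 31.6% lower.

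Of 8 tested ligand genes 6 rose in the INTS8 line (median 0.73, where 34.6% of all genes rose), 6 in the N211del line (median 0.90, where 48.5% rose) and 5 in the INTS11 line (median 0.47, where 19.4% rose), with 1 lower. HBEGF, a ligand of the EGF receptor, went from 9.81 and 13.1 with DMSO to 93.4 and 94.3 with dTAG13 in the INTS8 line (3.04 ± 0.11, adjusted p = 2.90e-12) and from 6.47 and 7.12 to 17.1 and 15 in the INTS11 line (1.23 ± 0.11, adjusted p = 7.14e-07). FGF9, a fibroblast growth factor, rose from 0.898 and 1.17 to 8.71 and 8.53 in the INTS8 line. Among 8 receptor genes 5 rose and 1 fell in the INTS8 line (median 0.58), among them FGFR1 (1.13 ± 0.10) and FGFR2 (0.95 ± 0.11), which are receptors of fibroblast growth factors. In the N211del line 6 receptor genes rose (median 0.67), and in the INTS11 line 3 rose and 1 fell (median 0.05), beside the same shares and all-gene medians of 0.06, 0.21 and −0.03.

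The genes of the core cascade went in both directions, with medians near those of all genes where INTS8 was degraded. Of 10 tested genes, from the adaptors through RAF to ERK, 4 rose and 2 fell in the INTS8 line (median 0.04, against 0.06 for all genes), where 55.6% of all genes were called. In the N211del line 4 rose and 1 fell (median 0.18 against 0.21), where 55.6% were called, and in the INTS11 line 1 rose and 3 fell (median −0.15 against −0.03), where 39.1% were called. KSR1, a scaffold of the cascade, rose by 0.73 ± 0.12 in the INTS8 line, and GAB1, a docking protein of receptors, by 0.74 ± 0.08. Of 15 genes of the JNK and p38 branches, 5 rose and 2 fell in the INTS8 line (median 0.06, as for all genes, of which 34.6% rose), with MAP2K6, a kinase that activates p38, at 0.77 ± 0.18 and MAP3K5, a stress-activated kinase of the same branch, at 0.49 ± 0.10. Of these 9 rose and 1 fell in the N211del line (median 0.21, as for all genes, of which 48.5% rose), and in the INTS11 line 1 rose and 2 fell (median −0.08 against −0.03).

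In batch 1, other phosphatases of the same family and other negative regulators lay nearer to the median of all genes than the 8 did. Of 9 further DUSP genes tested, 4 rose and 2 fell in the INTS8 line (median 0.14, against 0.06 for all genes), 5 rose and 1 fell in the N211del line (median 0.28, against 0.21), and 3 rose and 2 fell in the INTS11 line (median 0.10, against −0.03). DUSP19, at low levels, rose from 0.896 and 0.613 to 3.44 and 4.29 in the INTS8 line and from 0.802 and 0.707 to 3.16 and 2.64 in the INTS11 line (1.81 ± 0.18, adjusted p = 3.25e-07). DUSP7, a cytoplasmic ERK phosphatase close to DUSP6, rose by 0.74 ± 0.08 in the INTS8 line and by 0.38 ± 0.08 in the INTS11 line. Of 13 other negative regulators 6 rose in the INTS8 line (median 0.08), 9 in the N211del line (median 0.30), and 2 rose and 3 fell in the INTS11 line (median −0.04), where 34.6%, 48.5% and 19.4% of all genes rose. RGS2, which restrains signalling from G proteins, went from 5.87 and 7.11 to 51.6 and 52.9 in the INTS8 line (3.00 ± 0.22, adjusted p = 1.06e-05), and from 8.35 and 5.87 to 8.66 and 8.04 in the INTS11 line (0.25 ± 0.22, adjusted p = 0.403). RASA3, a RAS inhibitor, rose by 1.12 ± 0.20 in the INTS8 line, at levels below 1, and in the INTS11 line from 0.0994 in both libraries to 0.431 and 0.325. In batch 2, 10 further DUSP genes were tested at 3 h. Their median in the INTS11 line was 0.28, against 0.27 for the 8 and 0.08 for all genes. In the N211del line it was 0.22, against 0.94 and 0.18.

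**Figure D5:**
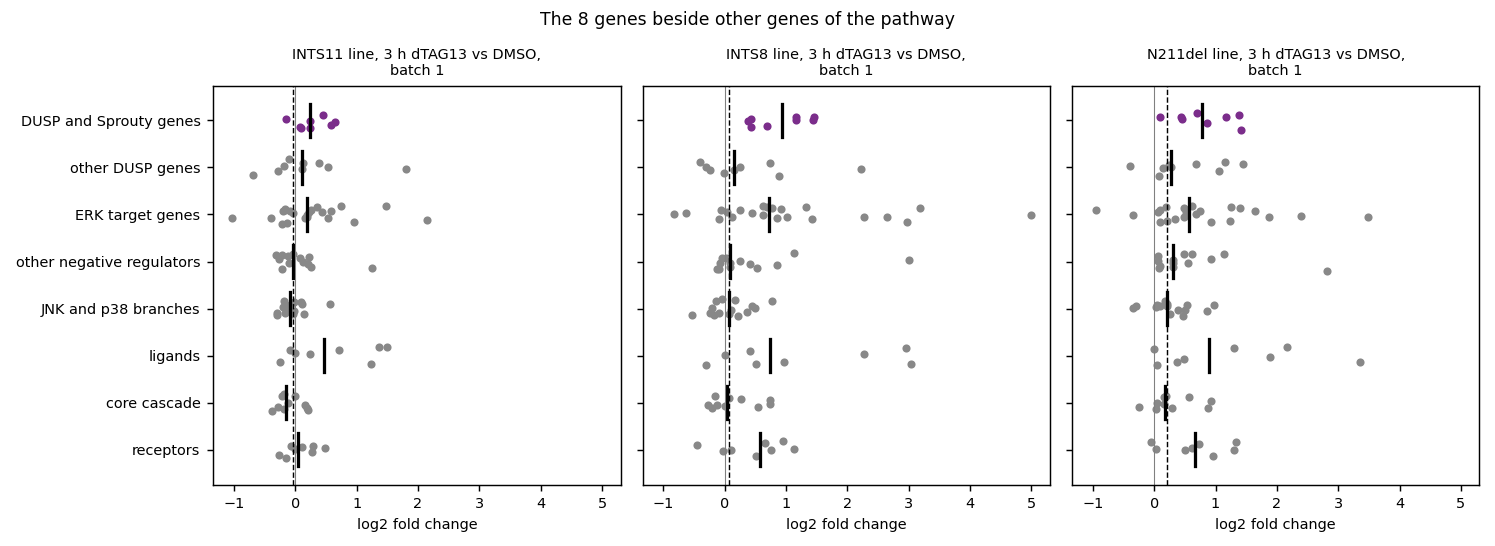
Log2 fold changes after 3 h in batch 1 for the 8 genes (purple) and the tested genes of 7 other lists (grey), one point per gene, with vertical jitter; thick bars are list medians and the dashed line is the median of all genes. The 8 genes had medians of 0.24, 0.93 and 0.78 in the INTS11, INTS8 and N211del panels, and the ERK target genes 0.19, 0.73 and 0.57.

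The pattern of DUSP1 over the 12 group means was most like that of the homeobox gene MSX1 (Pearson r = 0.992), and that of DUSP2 like those of ONECUT2 (r = 0.985) and EN2 (r = 0.977), homeobox genes as well. DUSP5 came closest to KRT19, a keratin gene (r = 0.978), and SERTAD3 (r = 0.977), and DUSP6 to UBALD2 (r = 0.977) and SDC4, a syndecan (r = 0.968). DUSP4 came closest to RTN4R (r = 0.981) and CDC34 (r = 0.977), DUSP10 to PCDH7 (r = 0.983) and PITPNC1 (r = 0.976), SPRY1 to MBLAC1 (r = 0.950) and PRDM1 (r = 0.949), and SPRY2 to KIAA0513 (r = 0.977) and P4HA2 (r = 0.972). Among the 8 themselves DUSP5 and DUSP6 (r = 0.913), DUSP6 and SPRY2 (r = 0.854) and DUSP4 and SPRY1 (r = 0.848) were also close. The means of a batch share its scaling, and each of these values comes from a search over all genes or pairs.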

How the data were processed

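TT-seq values were taken as deposited for 24 libraries in 12 groups of 2. The values are headed FPKM in the deposited files. They behave as whole-number units per kilobase of gene (99.9 to 100% whole within 0.02 units), multiplied in batch 2 by 1 factor per library, 0.565 to 0.753, and no source used here states the authors' scaling. The submitters' processing notes name the builds mm10 and hg19, the aligner STAR 2.7.5c, Trim Galore 0.6.6, Picard 2.23.3, DESeq2 1.26.0 and SAMtools 1.9. Whether counting used strand is not stated, so overlapping genes cannot be told apart. The treatment protocol gives 3 h for all; times in the titles were used.

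Batches were fitted apart. Log2(value + 0.1) of genes with a batch mean of at least 0.1 went into limma (3.58.1, under R 4.3.3) with 1 mean per group and trended, robust spread. P-values were two-sided and adjusted (Benjamini-Hochberg, threshold 0.05) separately for 18 contrasts. Fold changes are on this scale and understate low genes. The procedure was tested on simulated data. Replicate pairs correlated across genes at 0.994 to 0.997, and 6 of 12 pairs (3 in batch 1) differed by no more than counting noise; since the labels call them biological duplicates n = 2 was kept, and averaging such pairs is an alternative. Named genes were the members, the 2 genes most like each in pattern (1 of these is not reported here), and the 2 of each list with the largest mean absolute change at 3 h. The members, lists and tests were chosen with earlier results of these data known. Alternatives were a pseudocount of 0.01 or of 1, a filter at a mean of 1 or none, centring, a loess correction for gene length, a replicate block, only the contrast's libraries, averaged pairs and each library left out, which leaves a group of 1 that is assumed to vary like the others. Tables and plots used pandas 2.3.3 and matplotlib 3.10.9 under Python 3.11.15.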

Additional observations from a re-analysis of the deposited data

Results flagged for a closer look

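A difference between lines in the response to dTAG13 passed the test of the difference itself for these genes (limma, adjusted p below 0.05; log2 differences of response). For the INTS8 line minus the INTS11 line at 3 h in batch 1 these were DUSP1 at 1.21, DUSP4 at 0.71, DUSP5 at 0.58, DUSP6 at 0.61, DUSP10 at 0.79 and SPRY2 at 0.30. SPRY2 lost this call with centring. For the N211del line minus the INTS11 line at 3 h in batch 1 they were DUSP1 at 1.17, DUSP4 at 0.94, DUSP5 at 0.24, DUSP6 at 0.38, DUSP10 at 0.53, SPRY1 at 0.46 and SPRY2 at 0.37. Of these DUSP5, below the all-gene median of 0.26, lost its call under 10 of 17 alternatives and turned to −0.051 with centring. DUSP1, DUSP4 and DUSP10 kept theirs under all 17. DUSP6, SPRY1 and SPRY2 lost their calls with centring. The N211del line minus the INTS8 line gave DUSP5 at −0.34. In batch 2 the N211del line minus the INTS11 line gave, at 1 h, DUSP1 at 0.85, DUSP4 at 0.96, DUSP5 at 0.52, DUSP6 at −0.16, DUSP10 at 0.41, SPRY1 at 0.37 and SPRY2 at 0.37. At 3 h it gave DUSP1 at 1.00, DUSP4 at 0.93, DUSP5 at 0.35, DUSP6 at 0.20, DUSP10 at 0.84, SPRY1 at 0.51 and SPRY2 at 0.36. With centring the calls of SPRY1 and SPRY2 at 1 h and of DUSP6 and SPRY2 at 3 h were lost. The DUSP6 call at 1 h was lost under 6 of 17 alternatives. The comparisons of 1 and 3 h share their 0 h libraries, and those with the INTS11 line in batch 1 share its libraries.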

How the results depend on the processing

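Over the 7 comparisons with a control, 47 of 56 results on the 8 genes were called, and 33 of these 47 under every alternative. In these comparisons 39.1% to 71% of all genes were called, and the share holding under every alternative was not computed for all genes. Comparisons of 1 and 3 h share their 0 h libraries, so the 56 results are not independent. Of 2032 values of single genes under the alternatives, 145 lost a call with the sign kept, 31 gained one, and 36 had the other sign, 28 of them called neither as reported nor under the alternative. The other 8 follow. Centring turned DUSP5 to −0.16 (N211del line, 3 h, batch 1), −0.10 (N211del line, 1 h) and −0.051 (N211del minus INTS11 response, batch 1), and DUSP6 to −0.32 (N211del line, 1 h). Correction for gene length turned DUSP5 to −0.075 and DUSP6 to −0.31 (N211del line, 1 h), and DUSP6 in the INTS11 line to −0.052 at 1 h and −0.024 at 3 h in batch 2. The cause was not tested.

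Averaging the pairs within counting noise, which leaves fewer samples, gave 1374 genes called in the INTS11 line of batch 1, 2263 with 4 of the 8 at 3 h in batch 2, 0 with 0 of the 8 between 1 and 3 h, and 1018 with 1 of the 8 between these times in the N211del line. For differences of response it gave 894 genes (INTS8 minus INTS11), 1336 with 4 of the 8 (N211del minus INTS11, batch 1), 72 with 0 of the 8 (N211del minus INTS8) and 2244 (N211del minus INTS11, 3 h, batch 2). Before degradation it gave 1228 with 3 of the 8 (INTS8 minus INTS11) and 2711 with 4 (N211del minus INTS8). Centring and correction for length each gave 4 of the 8 in the INTS11 line at 1 h, 3 for N211del minus INTS11 in batch 1 and 3 for N211del minus INTS8. Correction for length gave 3 of the 8 in the INTS11 line at 3 h in batch 2. Between 1 and 3 h the INTS11 line had 192 genes and 1 of the 8 with centring, 40 genes and 1 of the 8 with length correction, and 1 gene and 0 of the 8 with its own libraries alone. The N211del line had 1333 and 1167 genes there, with 4 of the 8 under each.

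Leaving out each library in turn gave ranges of genes called and of the 8 called. They were 1686 to 2033 and 2 to 5 (INTS11, batch 1), 2971 to 3160 and 8 (INTS8), 2930 to 4070 and 6 to 7 (N211del, batch 1), 3175 to 3602 and 5 to 7 (INTS11, 1 h), 3020 to 3393 and 4 to 7 (INTS11, 3 h, batch 2), 1 to 949 and 0 to 2 (INTS11, 1 to 3 h), 4382 to 4703 and 7 (N211del, 1 h), 3757 to 4030 and 8 (N211del, 3 h, batch 2) and 1392 to 1764 and 1 to 2 (N211del, 1 to 3 h). For differences of response they were 1294 to 1563 and 5 to 6 (INTS8 minus INTS11), 2422 to 4013 and 6 to 7 (N211del minus INTS11, batch 1), 181 to 2522 and 0 to 1 (N211del minus INTS8), 2823 to 3355 and 5 to 7 (1 h, batch 2) and 2967 to 3376 and 6 to 8 (3 h, batch 2). Before degradation they were 1369 to 1796 and 4 to 6, 3657 to 3916 and 5 to 6, and 3571 to 3825 and 3 to 6 in batch 1 (INTS8 minus INTS11, N211del minus INTS11, N211del minus INTS8), and 4375 to 4506 and 8 in batch 2.

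Same-numbered libraries deviated together little (correlations of −0.08 to 0.02), so the numbers were not taken as pairs. A replicate block gave, for example, 3594 genes called in place of 3656 in the INTS8 line, and kept 143 of 144 results on the 8 genes. DUSP2, with 25 units in its lowest library, is the gene that depth limits most.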
